A study of Mus musculus with 2 samples.

Results

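The 7 genes Ptgds, Ptgis, Ptges, Ptgs1, Ptgs2, Hpgd and Ptger3 make, break down or sense prostaglandins, and their RNA was followed here across the nucleus classes of the mouse heart. They were chosen by symbol, with earlier results of these libraries known, so their levels are a description and carry no test. All 7 were among the 32245 gene symbols of the deposited matrices. Prostaglandins are short-lived lipids made where they act. Phospholipases release arachidonic acid from membranes, the cyclooxygenases encoded by Ptgs1 and Ptgs2 turn it into prostaglandin H, and a terminal synthase sets which product follows. Ptgds makes prostaglandin D, Ptges prostaglandin E and Ptgis prostacyclin, the vasodilator known best from vessel walls. Hpgd encodes the dehydrogenase that inactivates prostaglandins, and Ptger3 a receptor for prostaglandin E that lowers cyclic AMP.

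The data were single-nucleus RNA sequencing of cardiac tissue from 3.5-month-old male C57Bl6/J mice, with 1 library per group. The CF-KI group carried Tcf21-MerCreMer and Nlrp3-A350V/A350V, and the control carried Tcf21-MerCreMer and Nlrp3-WT/WT. Both groups received tamoxifen. Tcf21 marks resident cardiac fibroblasts, so the altered NLRP3 inflammasome sensor is meant to be active in that lineage, and the series text states that the allele stays silent in cells without Cre. How many animals gave a library is not stated in the labels. With 1 library per group there is no replicate check: every difference below is between these libraries, and every interval is at 95% and covers counting error only.

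UMIs (unique molecular identifiers, 1 per captured RNA) numbered 21603653 over 15077 CF-KI barcodes and 18040776 over 11257 control barcodes. The libraries shared 46 barcodes. After filters 14317 CF-KI and 10897 control nuclei remained, with a median mitochondrial share of 14.1% and 3.47%. Of 19 clusters, 17 were named from marker RNA, giving 13 classes, and 10 classes had at least 50 nuclei in each library. Levels are CPM, UMIs of a gene scaled to 1e6 non-mitochondrial UMIs of the class. Fibroblast-like nuclei came from 3 clusters that the libraries filled unequally: cluster 1 held 3155 CF-KI and 112 control nuclei, cluster 3 held 145 and 2328, and cluster 5 held 759 and 1151. The cardiomyocyte-like class joined cluster 0, with 2609 and 2191 nuclei, and cluster 4, with 1859 and 226 nuclei and median mitochondrial shares of 65.2% and 57.4%. Cardiomyocyte markers were also found in the 8 compared classes outside the cardiomyocyte lineage, and all 10 were higher in CF-KI in each of them. In fibroblast-like nuclei the 10 markers summed to 19522 CPM in CF-KI against 5821 CPM in the control. Over the 8 compared classes that are not cardiomyocytes, these markers stood at a median of 41.0% to 72.4% of their level in all kept nuclei in CF-KI against 18.3% to 44.7% in the control. Airway epithelial-like nuclei numbered 1 in CF-KI against 125 in the control. The summed level of airway epithelial markers was lower in CF-KI in every compared class.

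The levels differed between classes. Ptgds was highest in cardiomyocyte-like nuclei, Ptgs1 in endocardial-like nuclei, which line the chambers, and Ptgis and Hpgd in mesothelial-like nuclei, which cover the outer surface. Ptgs2, Ptges and Ptger3 gave few UMIs, 144, 111 and 27 over the kept nuclei of both libraries. In the control library, the first class was separated from the next one beyond counting error for Ptgds, Ptgs1, Ptgis and Hpgd, and the same held in CF-KI. For Ptgis and Hpgd the control separation leaned on the mesothelial-like nucleus with the most UMIs of both genes. That nucleus held 36 of 230 Ptgis and 22 of 151 Hpgd UMIs of its class. Whether the separation holds without it was not tested.

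**Figure D1:**
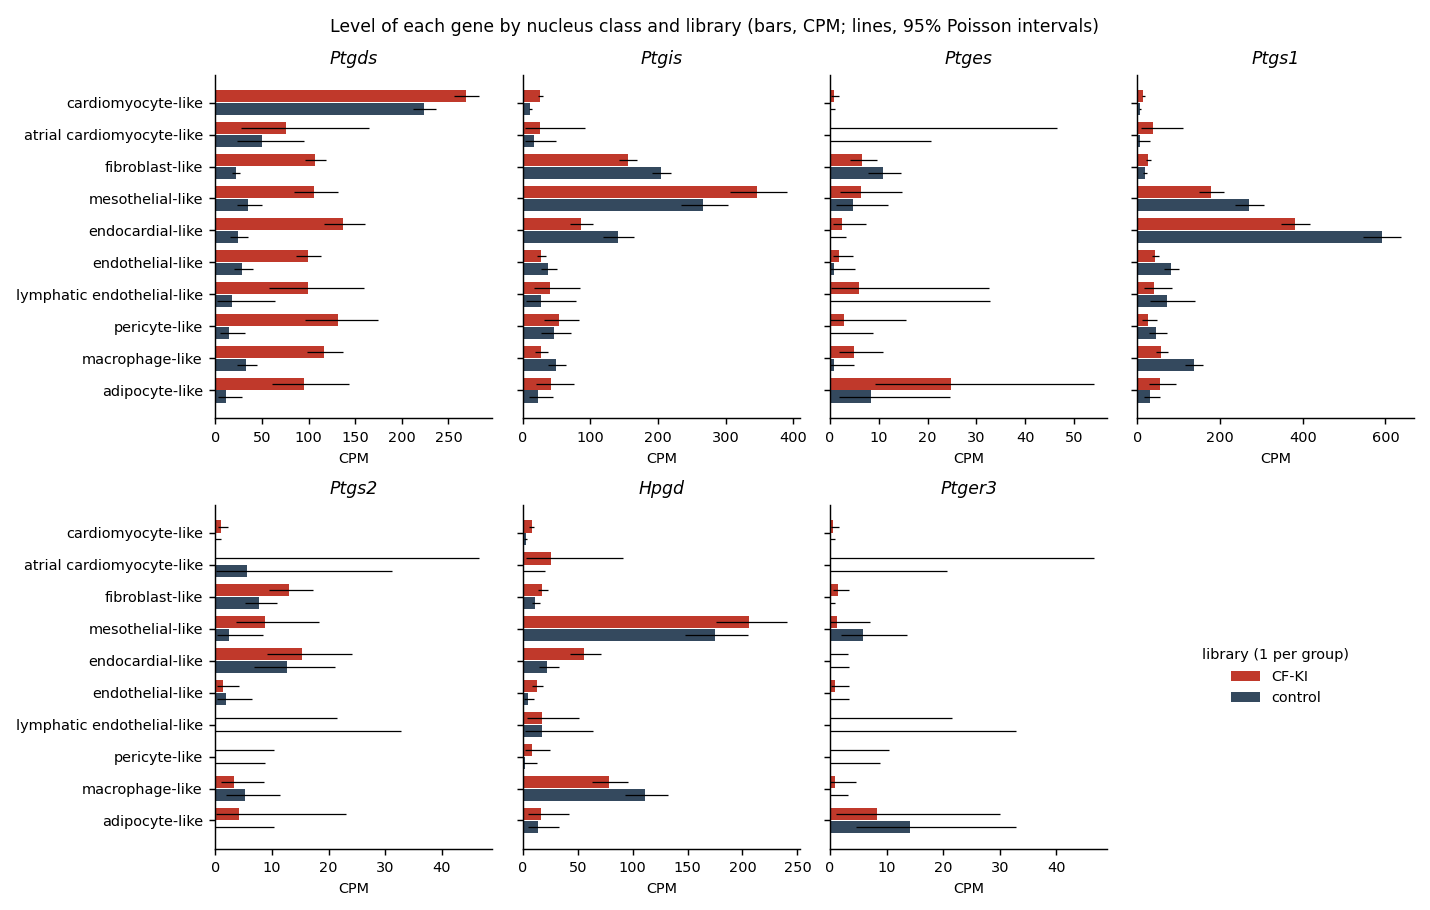
Level of each of the 7 genes in the 10 nucleus classes, in CPM on linear axes that differ between panels. Bars are the CF-KI library (red) and the control library (dark blue), 1 library each, and lines are 95% Poisson intervals. Ptgds reached 269 and 224 CPM in cardiomyocyte-like nuclei and Ptgs1 reached 381 and 591 CPM in endocardial-like nuclei.

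**Figure D2:**
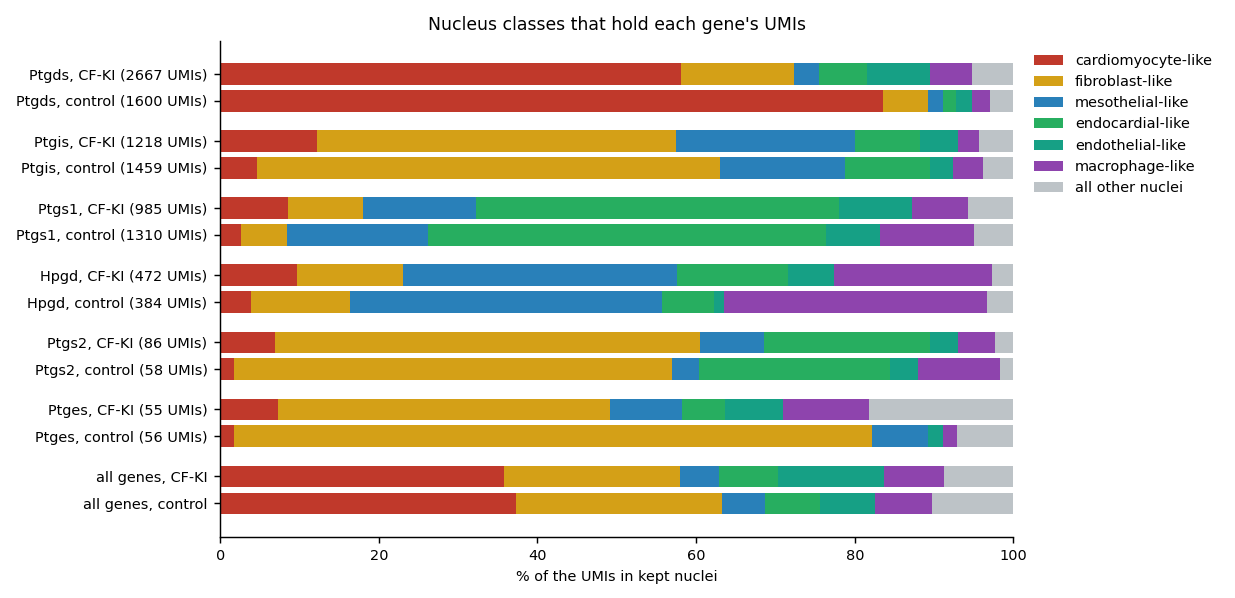
Share of each gene's UMIs, in percent of those in kept nuclei, that lay in 6 nucleus classes and in all other nuclei, for CF-KI and control. The last pair of bars gives the same for all genes together. Cardiomyocyte-like nuclei held 58.0% of Ptgds UMIs in CF-KI against 83.6% in the control, while they held 35.8% and 37.3% of all non-mitochondrial UMIs.

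Ptgs1 (ENSMUSG00000047250) is a protein-coding gene on the plus strand of chromosome 2, 36230426 to 36252272 on GRCm38, and encodes the cyclooxygenase that most cells hold without stimulation. Its RNA was an endocardial and mesothelial signal. Endocardial-like nuclei had 450 UMIs or 381 CPM (347 to 418) in CF-KI against 657 UMIs or 591 CPM (547 to 638) in the control. The intervals did not overlap, and the log2 ratio of CF-KI over control was -0.63 (-0.81 to -0.46). A Ptgs1 UMI was found in 23.7% of CF-KI and 39.2% of control endocardial-like nuclei, and in 1.75% and 1.41% of cardiomyocyte-like nuclei. The median depths were 629.5 and 774 non-mitochondrial UMIs in the first class and 1101 and 2195 in the second. After thinning to 300 non-mitochondrial UMIs per nucleus, the endocardial shares were 10.4% and 16.1%, and no endocardial-like nucleus was left out.

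Mesothelial-like nuclei came next for Ptgs1, with 178 CPM (150 to 210) in CF-KI against 269 CPM (235 to 306) in the control. Endocardial-like nuclei stood 2.14-fold above them in CF-KI against 2.20-fold in the control, and the intervals of these ratios overlapped. Macrophage-like nuclei had 58.2 CPM in CF-KI against 136 CPM in the control. Endothelial-like nuclei had 42.4 and 80.9 CPM, and the level differed between their clusters. Cluster 9, led by capillary genes such as Rgcc and Car4, had 30.3 CPM in CF-KI against 47.3 CPM in the control, while cluster 7 had 66.0 and 137 CPM. The difference between these clusters was 2.18-fold in CF-KI (log2 interval 0.50 to 1.75) and 2.90-fold in the control (0.89 to 2.20). In the control the order from the fourth to the eighth class was within counting error of each neighbour, and in CF-KI the same held from the third class down.

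Of the 10 compared classes, Ptgs1 was lower in CF-KI in the 4 with its highest control levels, with intervals that left out 0. Lymphatic endothelial-like (-0.80, -2.49 to 0.86) and pericyte-like nuclei (-0.85, -2.18 to 0.36) also had lower levels, within counting error. Adipocyte-like and atrial cardiomyocyte-like nuclei had higher levels in CF-KI, and their intervals held 0 too. Platelet or megakaryocyte-like nuclei, which were too few to compare, had 14 Ptgs1 UMIs or 124 CPM (68.0 to 209) from 111 nuclei in CF-KI and 5 UMIs or 311 CPM (101 to 726) from 12 nuclei in the control. Beside the endocardial value, the log2 ratio was -0.59 (-0.91 to -0.28) in mesothelial-like, -0.93 (-1.37 to -0.50) in endothelial-like and -1.23 (-1.65 to -0.81) in macrophage-like nuclei. It was higher in CF-KI in cardiomyocyte-like nuclei, with 14.6 against 5.86 CPM, and in fibroblast-like nuclei, with 26.1 against 18.2 CPM, with log2 ratios of 1.32 (0.73 to 1.93) and 0.52 (0.07 to 0.98). In these 2 classes an estimate of free RNA, given the make-up of the whole library and scaled by markers of other classes, came to 15.6 and 9.40 CPM for cardiomyocyte-like and 35.1 and 22.2 CPM for fibroblast-like nuclei, above the measured level in both libraries. With the same estimate subtracted, the endocardial log2 ratio was -0.73, the endothelial-like one -2.40 and the macrophage-like one -2.79. Among nuclei with at most 5% mitochondrial UMIs, clustered anew, the endothelial-like ratio was -2.18 (-4.52 to -0.53). The endocardial ratio was also negative in each range of mitochondrial share, at -0.96 up to 5%, -0.55 from 5% to 20% and -0.30 above 20%, where the interval (-1.06 to 0.56) held 0. The endocardial class's own 9 markers were lower in CF-KI for 7 of 9, with a median log2 ratio of -0.35 and a range of -1.01 to 0.16. Own markers were also lower in CF-KI for 6 of 7 in mesothelial-like and 9 of 11 in endothelial-like nuclei, with medians of -0.20 and -0.16. In macrophage-like nuclei all 9 were lower, with a median of -1.04. The part of these marker shifts in the Ptgs1 differences was not tested.

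Ptgs2 (ENSMUSG00000032487) lies on the plus strand of chromosome 1, 150100031 to 150108227, and encodes the cyclooxygenase that inflammatory signals induce in many cells. It was sparse in both libraries, with 90 UMIs in CF-KI against 64 in the control over all barcodes. Endocardial-like nuclei had 18 UMIs or 15.2 CPM (9.03 to 24.1) in CF-KI against 14 UMIs or 12.6 CPM (6.89 to 21.1) in the control, a log2 ratio of 0.27 (-0.81 to 1.39). Fibroblast-like nuclei held the most UMIs, 46 in CF-KI against 32 in the control, or 12.9 and 7.68 CPM, and their log2 ratio of 0.75 (0.07 to 1.45) lay just outside 0. Among their clusters, cluster 5, which is led by Cilp, Pi16 and Cd248, had 23 and 17 UMIs, or 21.9 and 8.54 CPM. Its log2 ratio was 1.36 (0.39 to 2.35). Cluster 1 had 20 and 1 UMIs and cluster 3 had 3 and 14 UMIs, and both intervals held 0. Within ranges of mitochondrial share the fibroblast-like log2 ratio was 3.23 (0.68 to 5.28) up to 5%, from 3 and 8 UMIs. From 5% to 20% it was 0.41 (-0.42 to 1.25), from 31 and 23 UMIs. Above 20% it was 0.05 (-2.71 to 5.47), from 12 and 1 UMIs. Lymphatic endothelial-like and pericyte-like nuclei had 0 Ptgs2 UMIs in either library. In pericyte-like nuclei 3 UMIs would give 8.39 CPM (CF-KI) or 7.18 CPM (control), and the upper limits at 0 UMIs were 10.3 and 8.82 CPM.

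Ptgds (ENSMUSG00000015090) is a short protein-coding gene of 3338 bases on the minus strand of chromosome 2, 25466709 to 25470046. Lipocalin-type prostaglandin D synthase, its product, is secreted and also carries small lipophilic molecules. Over all barcodes Ptgds stood at 165 CPM in CF-KI, from 2830 UMIs, and 99.9 CPM in the control, from 1679 UMIs. In cardiomyocyte-like nuclei it had 1548 UMIs or 269 CPM (256 to 283) in CF-KI against 1337 UMIs or 224 CPM (212 to 236) in the control. The log2 ratio of 0.27 (0.16 to 0.37) was close to the median of 0.23 over the 12680 genes measured in this class with at least 20 UMIs. After TMM scaling, which moves that median towards 0, the log2 ratio of Ptgds was 0.03 (-0.08 to 0.13).

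Within the cardiomyocyte lineage Ptgds was not even. Atrial cardiomyocyte-like nuclei had 6 UMIs or 75.8 CPM in CF-KI against 9 UMIs or 50.3 CPM in the control. The cardiomyocyte-like class stood 3.55-fold above them in CF-KI (log2 interval 0.70 to 3.28) and 4.45-fold in the control (1.23 to 3.29). The cardiomyocyte-like cluster of high mitochondrial share, cluster 4, had 398 and 318 CPM in CF-KI and control, where cluster 0 had 242 and 220 CPM. Nuclei with up to 5% mitochondrial UMIs had 240 and 221 CPM, those from 5% to 20% had 274 and 197 CPM, and those above 20% had 366 and 325 CPM. The log2 ratios in these ranges, 0.12 (-0.01 to 0.25), 0.47 (-0.07 to 1.07) and 0.17 (-0.21 to 0.58), had intervals that all held 0.

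Single nuclei of cluster 0 were less even in Ptgds in the control library. Of its 2191 control nuclei, 1610 had no Ptgds UMI and 90 (4.11%) had at least 4, and these 90 nuclei held 44.1% of the cluster's Ptgds UMIs. In CF-KI 42 of 2609 nuclei (1.61%) had at least 4 and held 19.1%. The highest counts in a nucleus were 14 and 13. The variance over nuclei was 3.54 times the mean in the control and 2.03 times in CF-KI, and 1.43 and 1.15 times after thinning to 300 non-mitochondrial UMIs. Nuclei with at least 4 UMIs were deeper than those with none, with median totals of 2897.5 against 2196 non-mitochondrial UMIs in the control and 2023 against 1557 in CF-KI. Their median mitochondrial share was 0.26% against 0.39% in the control and 3.79% against 3.78% in CF-KI.

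Outside the cardiomyocyte lineage Ptgds was higher in CF-KI in every one of the 8 classes, together with cardiomyocyte markers. Fibroblast-like nuclei had 381 UMIs or 107 CPM (96.6 to 118) in CF-KI against 90 UMIs or 21.6 CPM in the control, a log2 ratio of 2.31 (1.97 to 2.66). Each of the 3 fibroblast clusters had a smaller ratio than the class that joins them: 0.83 (-0.23 to 2.16) in cluster 1, with 301 and 7 UMIs, 1.91 (0.81 to 2.89) in cluster 3 and 1.71 (1.13 to 2.31) in cluster 5. The interval of cluster 1, which held most CF-KI fibroblast-like nuclei, held 0. Endocardial-like nuclei had 137 and 24.3 CPM, pericyte-like nuclei 132 and 14.4 CPM, and adipocyte-like nuclei 95.3 and 11.3 CPM, with log2 ratios of 2.50, 3.20 and 3.08. Among nuclei with at most 5% mitochondrial UMIs, clustered anew, the ratios were 1.44 (-0.37 to 2.97) in endocardial-like and 1.92 (0.57 to 3.17) in pericyte-like nuclei, and with called doublets kept the pericyte-like ratio was 2.07 (1.26 to 2.94). Macrophage-like, endothelial-like and mesothelial-like nuclei had 116, 99.2 and 106 CPM in CF-KI against 32.5, 28.8 and 34.7 CPM in the control, with log2 ratios of 1.84, 1.79 and 1.61. Lymphatic endothelial-like nuclei had 17 UMIs in CF-KI against 2 in the control, or 99.4 and 17.8 CPM. Below the first class, the intervals of neighbouring classes overlapped in either library.

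The differences were also read within ranges of mitochondrial share, with the names of the full clustering. In fibroblast-like nuclei the log2 ratio was 2.56 (1.33 to 3.64) up to 5% mitochondrial UMIs, from 9 and 38 Ptgds UMIs, and 2.48 (2.04 to 2.95) from 5% to 20%. Above 20% it was 1.43 (-0.16 to 3.74), from 94 and 3 UMIs. The 3 intervals overlapped. In endothelial-like nuclei up to 5% the libraries had 23.2 and 22.5 CPM, from 4 and 16 UMIs, and the log2 ratio was 0.05 (-1.99 to 1.68). From 5% to 20% it was 1.44 (0.59 to 2.42) in endothelial-like, 2.23 (1.42 to 3.15) in endocardial-like and 2.24 (1.26 to 3.41) in macrophage-like nuclei. Mesothelial-like nuclei had 1.44 (0.16 to 2.63) up to 5% and 3.23 (1.62 to 5.55) from 5% to 20%, from 64 and 3 UMIs. Above 20% they had the higher level in the control, with 121 and 247 CPM from 10 and 9 UMIs, and the interval (-2.48 to 0.45) held 0.

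The level of Ptgds in these 8 classes was 35.4% to 50.9% of its cardiomyocyte-like level in CF-KI against 5.02% to 15.5% in the control. The 10 cardiomyocyte markers, among them Myh6, Ttn and Tnnt2, had spans that held the Ptgds value in all 8 classes in CF-KI. In the control Ptgds stood lower among them: it lay below all 10 markers in adipocyte-like and pericyte-like nuclei, above 1 of 10 in endothelial-like, lymphatic endothelial-like and macrophage-like nuclei, above 3 in endocardial-like and fibroblast-like nuclei and above 6 in mesothelial-like nuclei. In fibroblast-like nuclei they stood at 17% to 87.7% of their cardiomyocyte-like level in CF-KI, with a median of 32.3%, and Ptgds at 39.8%. In the control they stood at 5.30% to 60.2%, with a median of 12.8%, and Ptgds at 9.64%. In all 8 classes each of the 10 markers had its higher level in CF-KI, with median log2 ratios from 0.77 in endothelial-like to 1.73 in adipocyte-like nuclei. The log2 ratio of Ptgds lay above those of all 10 markers in 6 of the 8 classes, above 9 in fibroblast-like nuclei and above 6 in mesothelial-like nuclei. Subtraction of free RNA left no Ptgds in the control in 7 of the 8 classes. It left 28.2 and 8.26 CPM in mesothelial-like nuclei, the class with a value in both libraries. The CF-KI library also lost most of its Ptgds. Macrophage-like nuclei kept none, and the other classes kept between 1.02 CPM (lymphatic endothelial-like) and 28.2 CPM (mesothelial-like). Fibroblast-like nuclei of that library went from 107 to 12.1 CPM, and endocardial-like nuclei from 137 to 20.9 CPM. The part of cardiomyocyte RNA in the difference between libraries was not tested.

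**Figure D3:**
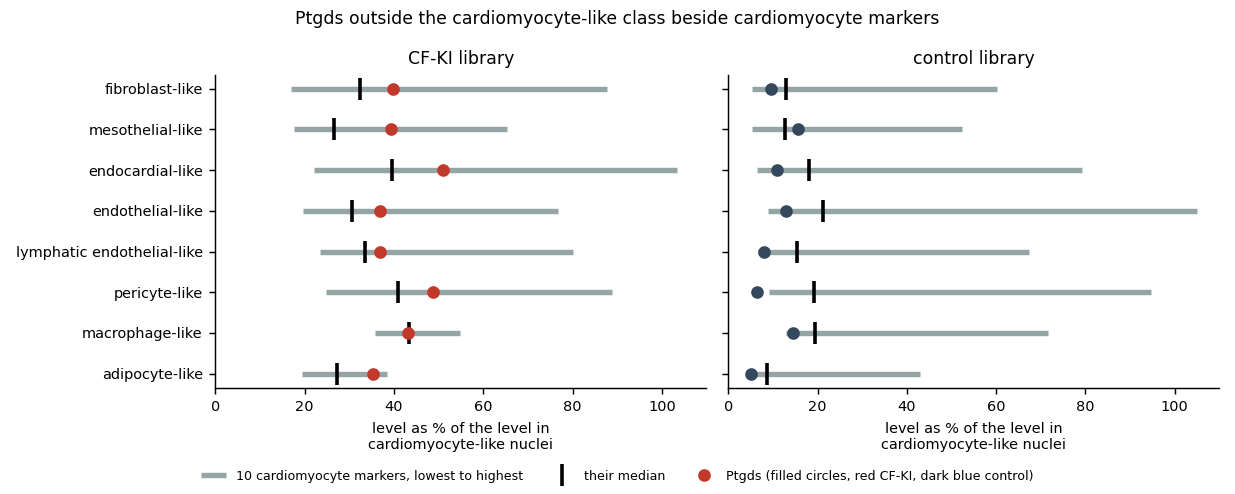
Level of Ptgds (filled circles) in 8 classes as a percentage of its level in cardiomyocyte-like nuclei, for the CF-KI library (left) and the control library (right). Grey lines span the lowest to the highest of 10 cardiomyocyte markers and ticks give their median. Ptgds lay within the span of the markers in all 8 classes in CF-KI, and below the span in pericyte-like and adipocyte-like nuclei of the control.

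Ptgis (ENSMUSG00000017969), on the minus strand of chromosome 2 from 167191805 to 167240604, encodes prostacyclin synthase. It was found mainly in mesothelial-like and fibroblast-like nuclei, and less in endocardial-like nuclei. Mesothelial-like nuclei had 274 UMIs or 346 CPM (306 to 390) in CF-KI against 230 UMIs or 266 CPM (233 to 303) in the control. The intervals did not overlap, and the log2 ratio was 0.38 (0.12 to 0.64). Of the control's 230 UMIs, 36 came from 1 nucleus that had 14714 non-mitochondrial UMIs, where the class median was 1028. Without the nucleus of each library with the most Ptgis, the log2 ratio was 0.53 (0.26 to 0.81), and with every nucleus thinned to 500 UMIs it was -0.06 (-0.57 to 0.44).

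Fibroblast-like nuclei had 551 Ptgis UMIs or 155 CPM (142 to 168) in CF-KI against 852 UMIs or 204 CPM (191 to 219) in the control, a log2 ratio of -0.40 (-0.56 to -0.24). Of the 10 fibroblast markers 9 were lower in CF-KI in this class too, with a median log2 ratio of -0.60 and a sum of 24304 CPM against 43038 CPM, and their part in the Ptgis difference was not tested. Within ranges of mitochondrial share the Ptgis ratio was 0.36 (-0.67 to 1.23) up to 5%, -0.56 (-0.74 to -0.38) from 5% to 20% and -0.75 (-1.52 to 0.10) above 20%. The level depended on the cluster. Cluster 5 had 248 CPM in CF-KI against 299 CPM in the control, while cluster 1 had 116 and 112 CPM and cluster 3 had 113 and 118 CPM. Cluster 5 stood 2.14-fold above cluster 1 in CF-KI (log2 interval 0.85 to 1.35) and 2.52-fold above cluster 3 in the control (1.12 to 1.56). Within clusters the libraries were closer than over the class: the log2 ratio was 0.04 (-0.82 to 1.06) in cluster 1, -0.06 (-0.89 to 0.67) in cluster 3 and -0.27 (-0.48 to -0.05) in cluster 5. Cluster 5 made up 18.7% of CF-KI and 32.1% of control fibroblast-like nuclei. Endocardial-like nuclei had 101 UMIs or 85.5 CPM in CF-KI against 156 UMIs or 140 CPM in the control, a log2 ratio of -0.71 (-1.09 to -0.34). Among nuclei with at most 5% mitochondrial UMIs, clustered anew, that ratio turned to 0.05 (-1.33 to 1.19). Endothelial-like nuclei had 27 and 37.7 CPM, and the interval of their log2 ratio (-1.08 to 0.13) held 0. Cardiomyocyte-like nuclei had 25.9 and 11.2 CPM, where the estimate of free RNA was 19.3 and 10.5 CPM.

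Ptges (ENSMUSG00000050737), on the minus strand of chromosome 2 from 30889471 to 30929863, encodes the inducible microsomal prostaglandin E synthase. Its 58 UMIs in CF-KI against 57 in the control give 3.39 CPM over each library. Fibroblast-like nuclei held 23 of 55 Ptges UMIs in kept CF-KI nuclei and 45 of 56 in the control, or 6.46 CPM (4.10 to 9.70) and 10.8 CPM (7.87 to 14.4). Their log2 ratio of -0.74 (-1.53 to 0.01) held 0. The highest mean level was in adipocyte-like nuclei, with 6 UMIs or 24.9 CPM (9.13 to 54.1) in CF-KI against 3 UMIs or 8.44 CPM (1.74 to 24.7) in the control, a log2 ratio of 1.56 (-0.67 to 4.19). The intervals of neighbouring classes overlapped throughout its order. A difference between the libraries was not detectable at this depth in any class.

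Hpgd (ENSMUSG00000031613) lies on the plus strand of chromosome 8, 56294585 to 56321043. Its RNA for prostaglandin breakdown was found in mesothelial-like and macrophage-like nuclei. Mesothelial-like nuclei had 163 UMIs or 206 CPM (176 to 240) in CF-KI against 151 UMIs or 175 CPM (148 to 205) in the control, with a log2 ratio of 0.24 (-0.09 to 0.57), whose interval held 0. The control nucleus with 36 Ptgis UMIs also had the most Hpgd, 22 of the 151 UMIs. Without the highest nucleus of each library the Hpgd log2 ratio was 0.40 (0.06 to 0.75). Macrophage-like nuclei had 94 UMIs or 78.1 CPM (63.1 to 95.6) in CF-KI against 127 UMIs or 111 CPM (92.9 to 133) in the control, a log2 ratio of -0.51 (-0.91 to -0.12). That direction depended on the mitochondrial range, at 0.44 (-0.35 to 1.17) up to 5% and -1.06 (-1.62 to -0.50) from 5% to 20%. Above 20% the ratio was 1.27 (-1.43 to 6.67), from 15 and 1 UMIs.

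Endocardial-like nuclei had more Hpgd in CF-KI, with 66 UMIs or 55.9 CPM (43.2 to 71.1) against 25 UMIs or 22.5 CPM (14.6 to 33.2), a log2 ratio of 1.31 (0.63 to 2.04). Hpgd and Ptgs1 thus lay on opposite sides of 0 in the endocardial-like class, with intervals that did not overlap. With free RNA subtracted the endocardial Hpgd levels were 35.3 and 13.3 CPM, and the log2 ratio was 1.41. From 5% to 20% mitochondrial UMIs it was 1.59 (0.64 to 2.68), from 54 and 11 UMIs. Above 20% it was 0.27 (-2.55 to 5.71), from 10 and 1 UMIs, and among nuclei with at most 5%, clustered anew, it was 0.33 (-2.86 to 2.47). Both of these intervals held 0. Fibroblast-like nuclei had 17.7 and 11.5 CPM, a log2 ratio of 0.62 (0.06 to 1.19). Free RNA was estimated there at 16.8 and 6.50 CPM, which left 0.90 CPM in CF-KI against 5.01 CPM in the control. Cardiomyocyte-like nuclei had 8.0 and 2.51 CPM, where free RNA was estimated at 7.49 and 2.76 CPM.

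Ptger3 (ENSMUSG00000040016), on the plus strand of chromosome 3 from 157566892 to 157645888, was close to the limit of detection, with 17 UMIs in CF-KI against 12 in the control. Adipocyte-like nuclei had 2 UMIs or 8.29 CPM (1.00 to 29.9) in CF-KI against 5 UMIs or 14.1 CPM (4.57 to 32.8) in the control, with a log2 ratio of -0.76 (-4.16 to 1.85), whose interval held 0. Mesothelial-like nuclei had 1 UMI in CF-KI against 5 in the control, and fibroblast-like nuclei 5 in CF-KI against 0 in the control. The fibroblast-like level was 1.40 CPM (0.46 to 3.28) in CF-KI. In the control 0 UMIs had an upper limit of 0.89 CPM, inside that interval, and 3 UMIs would give 0.72 CPM. The log2 ratio has no value at 0 UMIs, and the lower limit of its interval, 0.10, left out 0.

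**Figure D4:**
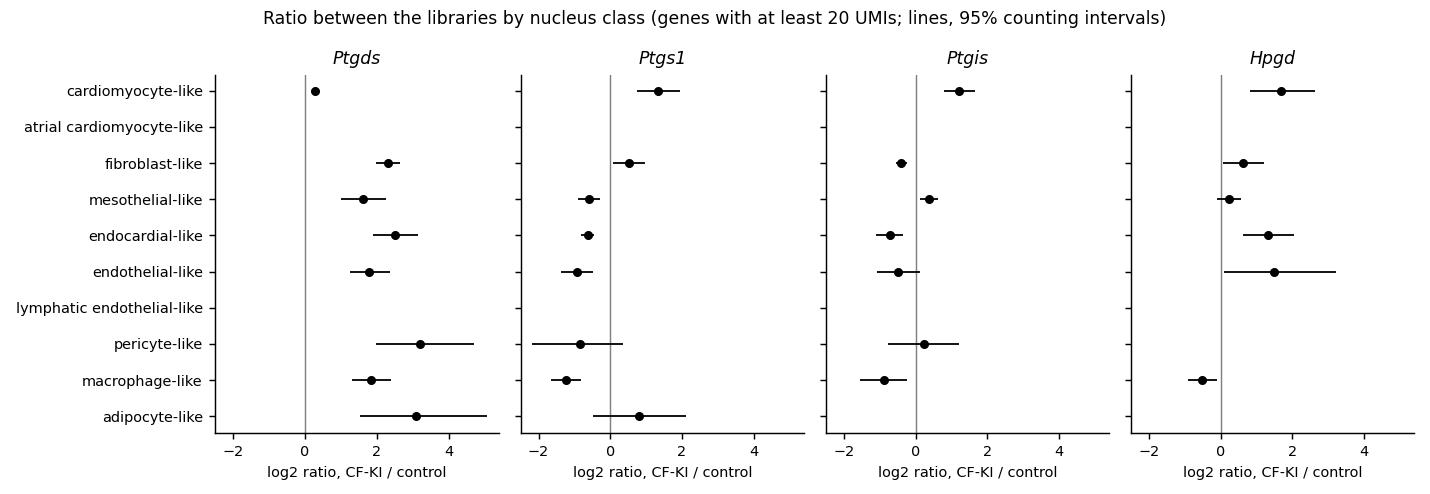
Log2 ratio of CF-KI over control for Ptgds, Ptgs1, Ptgis and Hpgd in each nucleus class with at least 20 UMIs of the gene over both libraries (points, with 95% counting intervals as lines, 1 library per group). Ptgds lay above 0 in all classes shown, from 0.27 in cardiomyocyte-like to 3.20 in pericyte-like nuclei, while Ptgs1 lay below 0 in endocardial-like and macrophage-like nuclei and above 0 in cardiomyocyte-like nuclei.

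Of the 7 genes, 4 had at least 20 UMIs over both libraries in cardiomyocyte-like nuclei and 3 of these were past 2-fold higher in CF-KI, where 17.4% of all genes measured were. In endocardial-like nuclei 2 of 5 were past 2-fold higher (6.58% of all genes), in fibroblast-like nuclei 1 of 6 (5.65%) and in mesothelial-like nuclei 1 of 4 (6.67%). In macrophage-like nuclei 1 of 4 was past 2-fold higher (7.43%) and 1 lower (5.69%), and in endothelial-like nuclei 2 of 4 were higher (3.15%). The genes were chosen with this contrast known, and nothing is read from these counts.

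The other genes of the pathway were read from a list of 40 genes in 4 roles, of which 39 were in the matrices. A list gene was counted as past 2-fold where it had at least 20 UMIs over both libraries and a log2 ratio beyond 1 either way. In endocardial-like nuclei 3 of 20 measured list genes were past 2-fold higher in CF-KI against 0 lower, against 6.58% and 3.07% of the 10204 genes measured there. The highest were Prxl2b, a prostamide and prostaglandin F synthase with a log2 ratio of 1.45, Ptges2 with 1.06 and the prostaglandin reductase Ptgr2 with 1.04. The Ptges2 interval (-0.14 to 2.38, from 20 and 9 UMIs) held 0. The lowest were the exporter Abcc4 with -0.88, the phospholipase Pla2g6 with -0.44 and Zadh2 with -0.41, and all 3 intervals held 0. Slco2a1, the transporter that takes prostaglandins up before their breakdown, was a gene of mesothelial-like and endocardial-like nuclei. It had 186 CPM in CF-KI against 285 CPM in the control in mesothelial-like nuclei, with a log2 ratio of -0.62 (-0.92 to -0.32). In endocardial-like nuclei it had 149 and 183 CPM, with a log2 ratio of -0.29 and an interval that held 0.

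Hpgds, Tbxas1, Alox5, Alox5ap and Ltc4s had their highest mean level over both libraries in macrophage-like nuclei. Lta4h, leukotriene A hydrolase, had its highest in lymphatic endothelial-like nuclei. Of 24 measured list genes 4 were past 2-fold lower in CF-KI against 0 higher, against 5.69% and 7.43% of the 10713 genes measured there. Ltc4s, leukotriene C synthase, had 85 UMIs or 70.6 CPM in CF-KI against 252 UMIs or 221 CPM in the control, a log2 ratio of -1.65 (-2.02 to -1.29). Alox5, which starts leukotriene synthesis, had 22 and 62 UMIs or 18.3 and 54.4 CPM, a log2 ratio of -1.57 (-2.35 to -0.85). Tbxas1, thromboxane synthase, had 49.0 and 137 CPM with a log2 ratio of -1.48 (-1.94 to -1.04), and the secreted phospholipase Pla2g2d had 4 and 29 UMIs with -2.94 (-4.91 to -1.43). These 4 genes and Ptgs1 were each lower in CF-KI with intervals that left out 0.

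Hpgds, the hematopoietic prostaglandin D synthase, was the list's leading synthase in macrophage-like nuclei, with 151 UMIs or 126 CPM (106 to 147) in CF-KI against 264 UMIs or 232 CPM (205 to 261) in the control. In CF-KI its level was higher in adipocyte-like nuclei, which had 169.9 CPM against 109.7 CPM in the control. Its macrophage-like log2 ratio of -0.88 (-1.18 to -0.59) stood beside -0.94 (-1.25 to -0.63) for Alox5ap, the activating protein of Alox5. The highest log2 ratios were 0.80 (-0.04 to 1.69) for Ephx2, 0.72 for Mgll and 0.65 for Zadh2, a prostaglandin reductase. The median over the 24 genes was -0.16, beside -0.02 over all genes measured. All 9 macrophage markers were lower in CF-KI in the class too, with a median log2 ratio of -1.04 and a range of -1.57 to -0.22, and their summed level was 3056 CPM in CF-KI against 6609 CPM in the control. Markers of other cell types differed in this class as well. The 6 granulocyte markers summed to 293 CPM in CF-KI against 40.4 CPM in the control, with 2 of them at 0 there. The 6 monocyte markers summed to 293 and 547 CPM and were all lower in CF-KI. The 6 platelet markers summed to 292 and 576 CPM, with 2 and 4 of them at 0, but 3 of the 6 were higher in CF-KI. The 8 airway epithelial markers summed to 4.99 and 784 CPM, with 6 and 2 at 0. That difference was not particular to macrophage-like nuclei. It was found in every compared class, with 1.69 and 834 CPM in endocardial-like and 101 and 695 CPM in mesothelial-like nuclei. The part of these marker shifts in the lower levels of Ptgs1, Hpgds, Ltc4s, Alox5 and Tbxas1 was not tested.

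**Figure D5:**
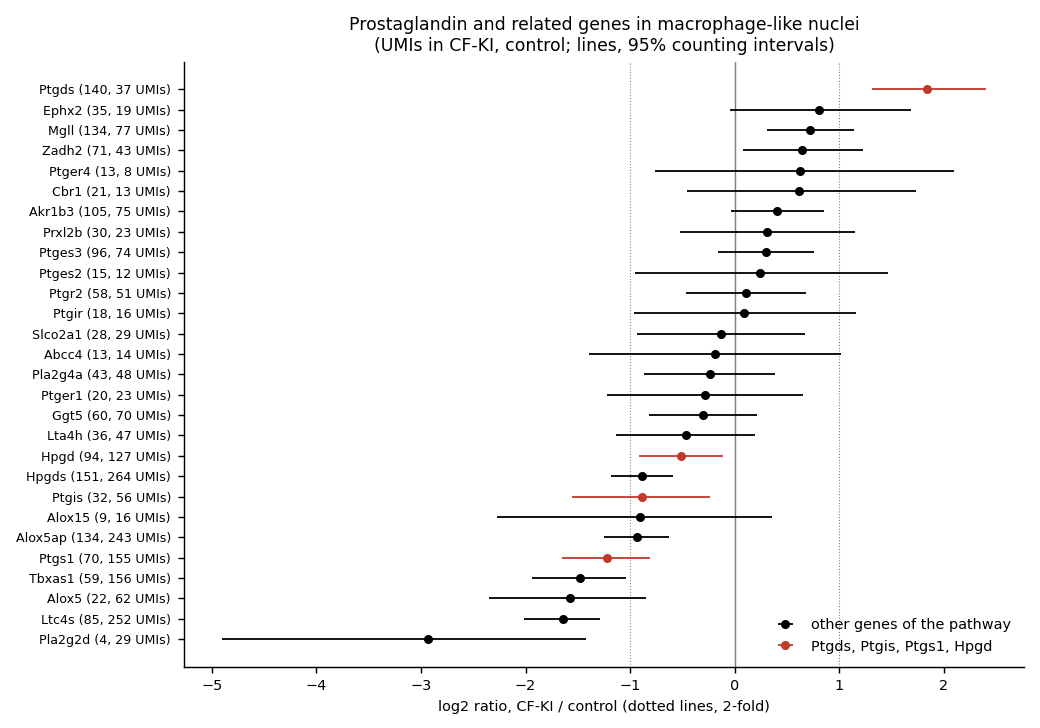
Log2 ratio of CF-KI over control in macrophage-like nuclei for the 24 list genes and 4 of the 7 chosen genes (red) with at least 20 UMIs over both libraries, with 95% counting intervals and UMIs in CF-KI and control beside each name. Ptgds was the highest at 1.84, and Pla2g2d, Ltc4s, Alox5, Tbxas1 and Ptgs1 lay beyond -1.

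In fibroblast-like nuclei 4 of 28 measured list genes were past 2-fold higher in CF-KI against 0 lower, against 5.65% and 2.7% of the 12701 genes measured there. Ephx2, an epoxide hydrolase that acts on fatty acid epoxides, had 124 UMIs or 34.8 CPM in CF-KI against 37 UMIs or 8.88 CPM in the control, a log2 ratio of 1.97 (1.43 to 2.54). Prxl2b followed with 1.26 and the prostaglandin E receptor Ptger1 with 1.12, from 26 and 14 UMIs. The lowest were Cbr3 with -0.72, Tbxas1 with -0.58 (-2.04 to 0.77, from 8 and 14 UMIs) and Cyp2j6 with -0.51. The 3 further receptors with the most UMIs here had intervals that held 0. Ptgir, for prostacyclin, had 47.8 and 48.5 CPM, Ptgfr, for prostaglandin F, 24.2 and 22.1 CPM and Ptger4, for prostaglandin E, 16.9 and 18.7 CPM in CF-KI and control, and the intervals of their log2 ratios were -0.32 to 0.28, -0.31 to 0.57 and -0.66 to 0.35. Over all barcodes, not only fibroblast-like nuclei, the receptors for prostaglandin D gave 2 UMIs of Ptgdr and 2 of Ptgdr2, all in the control library.

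In cardiomyocyte-like nuclei 10 of 27 measured list genes were past 2-fold higher in CF-KI against 0 lower, against 17.4% and 1.89% of the 12680 genes measured. Among nuclei with at most 5% mitochondrial UMIs, clustered anew, 1 list gene was past 2-fold, and 2 at a limit of 20%. The shares over all genes at these limits are not given here. The highest were Tbxas1 with 18 and 3 UMIs, Cbr3 with 23 and 4 and Alox5ap with 27 and 9, and all of them stood under 5 CPM in CF-KI. Their levels were highest in macrophage-like nuclei for Tbxas1 and Alox5ap, and in fibroblast-like nuclei for Cbr3. The lowest were the phospholipases Pla2g6 with a log2 ratio of -0.98 and Pla2g4b with -0.90, and Alox5 with -0.29 (-1.58 to 0.95). Macrophage markers in cardiomyocyte-like nuclei summed to 166 CPM in CF-KI against 88.9 CPM in the control. Their part in these ratios was not tested.

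In mesothelial-like nuclei 3 of 15 measured list genes were past 2-fold higher in CF-KI against 1 lower, against 6.67% and 3.16% of the 9325 genes measured. Pla2g4a, the cytosolic phospholipase that releases arachidonic acid for the cyclooxygenases, had 60 UMIs or 75.8 CPM in CF-KI against 30 UMIs or 34.7 CPM in the control, a log2 ratio of 1.13 (0.47 to 1.81). Ephx2 had the same log2 ratio of 1.13 from 26 and 13 UMIs, and Prxl2b had 1.32 (-0.04 to 2.84) from 16 and 7. The lowest were Faah, which breaks down endocannabinoids, with -1.22, Hpgds with -0.78 (-1.76 to 0.14) and Ggt5 with -0.72 (-1.74 to 0.24). Endothelial-like nuclei had the highest level of Mgll, the monoacylglycerol lipase, with 1360 CPM in CF-KI against 2026 CPM in the control. There 2 of 24 list genes were past 2-fold higher and 3 lower, against 3.15% and 3.33% of the 10514 genes measured. The highest were Ephx2 with a log2 ratio of 1.19 (0.43 to 2.01), Pla2g4a with 1.17 (-0.15 to 2.74) and Cbr3 with 0.86 (-0.50 to 2.46). The 3 lower ones were Pla2g6 with a log2 ratio of -1.53, Ptgir with -1.50 and Slco2a1 with -1.33. The UMIs in CF-KI and control were 8 and 12, 13 and 19, and 23 and 30.

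The list genes with the highest level of their role were also read in the 6 classes described. Among genes of release and synthesis, Ptges3, the cytosolic prostaglandin E synthase, led in endothelial-like nuclei with 174 CPM in CF-KI against 173 CPM in the control, in fibroblast-like nuclei with 91.6 and 90.0 CPM and in endocardial-like nuclei with 86.4 and 64.8 CPM. The intervals of its log2 ratios held 0 in these 3 classes. Akr1b3, an aldose reductase that can make prostaglandin F, led in cardiomyocyte-like nuclei with 72.5 and 61.6 CPM and in mesothelial-like nuclei with 85.9 and 71.8 CPM. For export and breakdown the leading gene was Ptgr2 in cardiomyocyte-like nuclei, with 94.4 and 90.3 CPM, and Zadh2 in fibroblast-like (83.4 and 86.4 CPM), macrophage-like (59.0 and 37.7 CPM) and endothelial-like nuclei (40.5 and 42.2 CPM). Leading receptors stood low: Ptger1 had 19.5 and 12.6 CPM in endocardial-like, 16.6 and 20.2 CPM in macrophage-like and 5.04 and 3.18 CPM in cardiomyocyte-like nuclei. Ptger4 led with 20.9 and 14.4 CPM in endothelial-like and 12.6 and 2.32 CPM in mesothelial-like nuclei. Of the other arachidonic acid branches, Mgll led in endocardial-like (192 and 201 CPM) and mesothelial-like nuclei (149 and 129 CPM), and Ephx2 in cardiomyocyte-like nuclei (54.1 and 52.6 CPM). Ggt5, a gamma-glutamyltransferase that acts on leukotriene C, led in fibroblast-like nuclei with 124 and 165 CPM, and its log2 ratio of -0.41 (-0.59 to -0.24) left out 0.

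Patterns across classes were compared by Pearson's correlation of log2(CPM + 1) over 20 points, the 10 classes in each library, among 12979 genes with at least 100 UMIs. The points of a library share its depth and its free RNA, so these values are descriptions. Ptgds was most like Pln, the regulator of the calcium pump of the sarcoplasmic reticulum, with r = 0.92, then Fhl2 with 0.89 and Cavin4 with 0.89, all genes of cardiomyocytes. Pln and Fhl2 are among the 10 cardiomyocyte markers. Ptgs1 was most like the natriuretic peptide receptor Npr3 with r = 0.92, an endocardial marker of the naming lists, then Zfp57 with 0.88 and Tmtc2 with 0.88. Ptgis was most like Sulf1 with 0.95, Tmeff2 with 0.91 and Ecm1 with 0.89. Hpgd was most like Rbbp8 with 0.89, the iron carrier Trf with 0.89 and Smpd3 with 0.87. For the sparse Ptgs2 the first were Slco1a4 with 0.77, Aldh1a3 with 0.77 and Pla2g4a with 0.77, and for Ptges they were Negr1 with 0.83, Twist2 with 0.82 and F3 with 0.81. Ptger3 was under the minimum of 100 UMIs.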

How the data were processed

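Single-nucleus RNA libraries were made with a 10x Genomics 3′ kit, per the labels' protocols. The authors deposited raw UMI counts per gene and barcode, and the deposited counts were whole numbers. Cell Ranger 6.1.1 and the build mm10 are named in the submitters' processing notes. The filters used in cell calling are not given in the sources used here. Gene positions come from GENCODE vM21 on GRCm38, matched by Ensembl identifier. No deposited barcode had under 500 UMIs.

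Barcodes with at least 200 genes were kept, with no mitochondrial limit, and doublets called with Scrublet in scanpy 1.11.5 were removed (650 of 14967 in CF-KI, 4.34%, and 299 of 11196 in the control, 2.67%). Joint clustering used 2000 variable genes, 30 principal components, 15 neighbours and leidenalg 0.10.2 (resolution 0.8). Each cluster took the name of the list, of 20, with the highest share of markers raised (a log2 fold of 1 or more, detected in 5% of nuclei or more), counting no list with under 3 such markers. It stayed unnamed if at least 3 of its 10 leading genes were cell-cycle genes, or if those 10 held more markers of another list. The same held if 2 or more other lists had most of their markers raised. A cluster with low UMI totals for its library and no marker of its list among those 10 also stayed unnamed. Lists of related cell types, such as the endothelial ones, did not count as other lists. This order of rules was set after seeing the clusters. The ending -like marks names rebuilt from marker RNA, which may themselves shift a difference.

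CPM have exact Poisson intervals, shares exact Clopper-Pearson intervals, and log2 ratios conditional exact binomial intervals, all at 95%. For a count of 0 the level that 3 UMIs give is used as a floor, which lies under the upper Poisson limit. These functions were tested on simulated data. With 1 library per group no test or p-value is given, and nuclei are not replicates. The 7 genes, the pathway list and the marker lists were chosen with earlier results of these data known. Genes were named by a rule: the 7 genes in all classes, the 3 highest and 3 lowest list genes with at least 20 UMIs in each class described, the highest list gene of each role, and the 3 genes most alike each of the 7. Values of Slco2a1, Hpgds, Alox5ap, Tbxas1, Lta4h, Ptgir, Ptgfr, Ptger4, Ptgdr, Ptgdr2 and Mgll fell partly outside it and were chosen after their values were seen. Free RNA was given the make-up of all kept nuclei, and its share was the median level of cardiomyocyte markers in a class over their level in all kept nuclei (in cardiomyocyte-like nuclei, of the markers of other lists). Alternatives were mitochondrial limits of 5% and 20%, at least 500 genes, called doublets kept, resolution 0.4 or 1.5, each library clustered alone, TMM scaling (edgeR 4.0.16), median-of-ratios scaling (DESeq2 1.42.0), subtraction of free RNA, thinning to 500 UMIs, omission of clusters above 50% mitochondrial share, and minimums of 100 UMIs or 1 UMI. A mitochondrial range of 5% to 20%, omission of single nuclei and values per cluster were added after seeing the data.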

Additional observations from a re-analysis of the deposited data

How the results depend on the processing

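No paired analysis was possible because each group has 1 library. Over 29 results and 363 values under alternatives, 314 stayed within the spread of counting error or within 1.5 times the count, 46 moved further, and 3 whose interval had left out 0 changed sign. The sign also changed within counting error for Hpgd in mesothelial-like nuclei, from 0.24 to -0.015 with at least 500 genes, and for Ptgds in atrial cardiomyocyte-like nuclei, from 0.59 to -0.55 between 5% and 20% mitochondrial UMIs. The Ptgds log2 ratio in cardiomyocyte-like nuclei, 0.27, was 0.13 with at most 5% mitochondrial UMIs, 0.14 with at least 500 genes, 0.026 with TMM scaling, 0.037 with median-of-ratios scaling, 0.10 with free RNA subtracted, 0.055 with nuclei thinned to 500 UMIs, 0.13 without clusters of very high mitochondrial share and 0.47 between 5% and 20% mitochondrial UMIs. TMM and median-of-ratios scaling moved all log2 ratios in that class by -0.24 and -0.23. The Ptgs1 log2 ratio in endocardial-like nuclei, -0.63, was -1.64 with at most 5%. The Ptgis log2 ratio in mesothelial-like nuclei, 0.38, was 0.12 with at most 5%, 0.12 between 5% and 20%, and turned to -0.062 when thinned. Ptgds in endothelial-like nuclei went from 1.79 to 1.02 and Ptgs2 in fibroblast-like nuclei from 0.75 to 1.83 with at most 5%. Between 5% and 20% the Ptgs2 ratio was 0.41. Ptgis in endocardial-like nuclei went from -0.71 to -1.70 with free RNA subtracted. With at most 5%, Ptgis in endocardial-like nuclei turned from -0.71 to 0.052 and Hpgd in macrophage-like nuclei from -0.51 to 0.69.

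The count of list genes past 2-fold in cardiomyocyte-like nuclei, 10, was 1 with at most 5% mitochondrial UMIs, 2 with at most 20%, 3 with at least 500 genes, 3 with free RNA subtracted and 2 with a minimum of 100 UMIs. In endocardial-like nuclei the count of 3 was 1 with at most 20%, 9 with free RNA subtracted, 0 with a minimum of 100 UMIs and 7 with a minimum of 1 UMI. In fibroblast-like nuclei the count of 4 was 2 with a minimum of 100 UMIs and 8 with a minimum of 1 UMI. In macrophage-like nuclei the count of 4 was 8 with at most 5%, 8 with the libraries clustered separately, 13 with free RNA subtracted, 2 with a minimum of 100 UMIs and 9 with a minimum of 1 UMI. The number of list genes measured and the share over all genes under each setting are not given here. A move of these counts is therefore not read as a change particular to the pathway, and the causes were not tested. Subtraction of free RNA gave no value for Ptgds in 7 of the 8 classes outside the cardiomyocyte lineage, nor in atrial cardiomyocyte-like nuclei. For the atrial class the estimate was not usable. It was scaled by cardiomyocyte markers, which these nuclei carry themselves, and gave free shares of 178% (CF-KI) and 244% (control). Nothing is read from the missing atrial value. Depth limits Ptgs2, Ptges and Ptger3 most.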
